A study of Mus musculus with 18 samples.

Results

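The Schlafen genes described here are Slfn1, Slfn2, Slfn3, Slfn4, Slfn5, Slfn8 and Slfn9, 7 of the 24419 gene symbols in an RNA-seq table of mouse hearts after acute myocardial infarction (AMI). They were chosen by family name, because Slfn4 was seen among the largest rises at 24 h. That contrast therefore carries no test for any of them, and Slfn4 carries none against sham at any time. The hearts came from male C57BL/6 mice aged 8 weeks. The proximal left anterior descending coronary artery was ligated in the AMI mice, and the infarct left ventricle was taken 10 min, 1 h, 6 h, 24 h or 72 h later, while the control mice, called sham, were not infarcted. Each of the 6 groups held 3 mice, numbered here as the labels number them, and each group is compared as those 3 hearts. The model is a permanent ligation in young males of 1 inbred strain, and whole tissue was sequenced, so that a gene's level reflects all cell types in the sample together. Levels are in FPKM, fragments per kilobase of transcript scaled to the mapped total, as deposited. They summed to between 542418 and 600467 in the 18 libraries. The authors' table gives no counts, but steps among low values put the relative depths at 0.818 to 1.31 times that of sham mouse 1. Heart muscle genes were abundant in all 18 libraries: the 8 cardiomyocyte markers (Tnnt2, Myh6 and others) summed to 49523 to 51742 FPKM in sham hearts and 19249 to 23717 FPKM at 72 h.

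Schlafen genes take their name from the German word for sleeping, since the first of them were found to restrain the growth of developing T cells, and several are induced by interferon or during the maturation of myeloid cells. Mouse members are sorted by protein size: a short group (Slfn1 and Slfn2), an intermediate group (Slfn3 and Slfn4) and a long group with an added helicase-like region that is carried into the nucleus (Slfn5, Slfn8, Slfn9 and the pseudogene Slfn10-ps). All share a core domain related to RNA binding and cleavage, and family members act on transfer RNA, either cutting it or, for Slfn2, shielding it from cleavage. Slfn4 marks activated and immature myeloid cells. In the heart these genes have no classic role, and leukocytes that enter the infarct are known to express several of them.

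The genes lie side by side on chromosome 11. From the start of Slfn5 to the end of Slfn3 the cluster spans 263.8 kb (mm10, chr11:82951349-83215154), in the order Slfn5, Slfn9, Slfn8, Slfn10-ps, Slfn2, Slfn1, Slfn4, Slfn3, with Slfn14 beyond. GENCODE M21 places Slfn5 at chr11:82951349-82964840, Slfn2 at chr11:83065112-83070678, Slfn1 at chr11:83116849-83122670, Slfn4 at chr11:83175186-83190216 and Slfn3 at chr11:83191330-83215154, all on the plus strand. Slfn9 at chr11:82978390-82991830 and Slfn8 at chr11:83002158-83020810 lie on the minus strand. The bases just before the gene starts are shown because the members moved on different schedules, and the same short words recur in some of these stretches. The sequences are from RefSeq (GRCm38.p6), which had an entry for all 7 genes. Each is 120 bases long, on the gene's own strand, and ends 1 base before the RefSeq start, except for Slfn5, where bases 190 to 71 before the start are shown. The Slfn5 stretch falls inside the gene body in GENCODE, which draws an earlier start. Capitals mark ACTTCCTG, a word bound by ETS factors such as PU.1, or GAAA-NN-GAAA (N is any base), the core of the interferon-stimulated response element (ISRE), on either strand.
Slfn4 (chr11:83175066-83175185, plus): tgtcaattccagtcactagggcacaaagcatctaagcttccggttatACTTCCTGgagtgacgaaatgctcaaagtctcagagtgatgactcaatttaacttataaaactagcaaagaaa
Slfn1 (chr11:83116700-83116819, plus): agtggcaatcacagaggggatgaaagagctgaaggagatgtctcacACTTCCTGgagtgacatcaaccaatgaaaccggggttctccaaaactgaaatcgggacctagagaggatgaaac
Slfn2 (chr11:83064992-83065111, plus): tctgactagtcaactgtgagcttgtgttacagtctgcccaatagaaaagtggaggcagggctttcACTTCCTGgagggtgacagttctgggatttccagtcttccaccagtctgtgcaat
Slfn3 (chr11:83191210-83191329, plus): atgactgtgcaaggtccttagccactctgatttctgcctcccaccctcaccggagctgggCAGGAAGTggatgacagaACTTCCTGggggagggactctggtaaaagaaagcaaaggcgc
Slfn8 (chr11:83020811-83020930, minus): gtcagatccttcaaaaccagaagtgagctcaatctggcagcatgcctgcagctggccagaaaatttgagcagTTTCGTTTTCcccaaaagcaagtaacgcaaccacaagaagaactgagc
Slfn9 (chr11:82991831-82991950, minus): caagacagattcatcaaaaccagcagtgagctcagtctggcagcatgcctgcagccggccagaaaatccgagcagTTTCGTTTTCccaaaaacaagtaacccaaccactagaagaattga
Slfn5 (chr11:82951912-82952031, plus): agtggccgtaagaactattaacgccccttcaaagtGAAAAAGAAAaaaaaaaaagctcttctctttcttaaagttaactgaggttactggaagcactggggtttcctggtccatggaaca

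The short and intermediate genes on the plus strand (Slfn1, Slfn2, Slfn3 and Slfn4) held the ETS word, and the long genes (Slfn5, Slfn8 and Slfn9) held the ISRE word. Of 32851 mouse promoters searched over the same 250 bases, 2.69% had ACTTCCTG and 2.98% had GAAA-NN-GAAA. The members are related genes, some of which share longer runs of bases here, so they are not independent draws from these promoters. Slfn1 and Slfn4 shared 15 bases without a break around the ETS word, acttcctggagtgac, which began 74 bases before the start of Slfn1 and 73 before that of Slfn4. The longest run that Slfn2 shared with Slfn1, 12 bases, also held the word. Slfn3 carried the word on both strands. In Slfn8 and Slfn9 the ISRE word had the same letters, TTTCGTTTTC, 48 and 45 bases before the start, and their longest shared run was 20 bases, tctggcagcatgcctgcagc. Slfn8 has a second RefSeq start, from which the same word lies 136 bases upstream. Among the other words searched on both strands, TGANTCA (AP-1, in 6.75% of promoters) was found in Slfn4 34 bases before the start, TTGCNNAA (C/EBP, 9.56%) in Slfn2 and Slfn3, and GGAA-NN-GAAA (the ETS-IRF composite, 2.30%) in Slfn2, where it overlaps the ETS word. No member had TTCNNNGAA (the STAT site GAS, 7.02%) or GGGA-N-TTTCC (NF-kappaB, 0.356%) in these windows. A match is a match of letters only, and Slfn3 shared the ETS word without sharing the course of the other 3 genes, as described next.

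All 7 genes passed the filter of at least 1 FPKM in at least 1 mouse, but Slfn1 did so only through mice at 6 h and later, so its passing is tied to the times at which it was high. The other symbols of the family in the table were Slfn10-ps, which passed through 4 mice, and Slfn14, Slfn5os and Slfnl1, which did not pass. Slfn14 was listed at 0 in 14 of 18 mice and Slfnl1 in 13. Reads could be split among close relatives, and over windows of 150 bases only Slfn9 shared any with another symbol of the family, 87 windows or 1.46% of its own, all with Slfn10-ps. Slfn5os runs antisense to Slfn5 and stayed at or below 0.264 FPKM. Whether fragments were counted by strand is not given in the sources used here, so the pair cannot be told apart where they overlap.

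**Figure D1:**
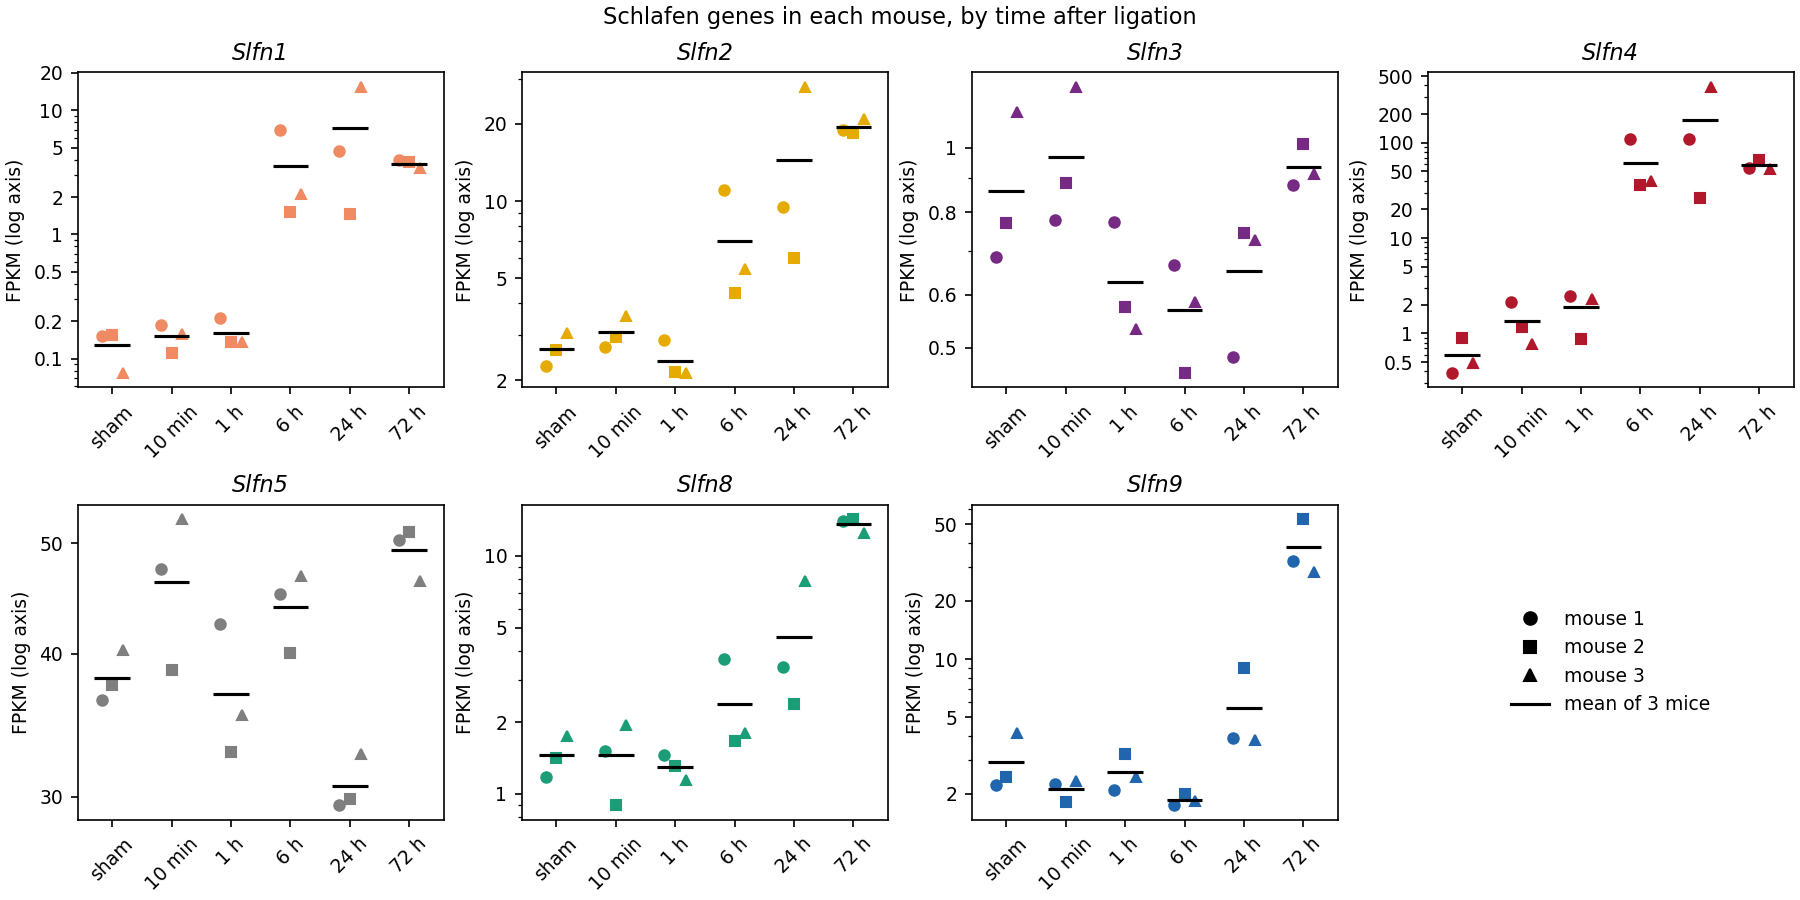
FPKM of each Schlafen gene in each of the 18 mice, on log axes that differ between panels, by group. Points are mice (circle 1, square 2, triangle 3) and bars are means of 3. Slfn4 and Slfn1 step up at 6 h, Slfn2 is above sham from 6 h on, Slfn8 and Slfn9 are highest at 72 h, and Slfn5 is lowest at 24 h.

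In the first hour few genes of any kind were called, and no Schlafen gene tested was among them. None of the 6 members other than Slfn4 passed the threshold at 10 min or at 1 h (limma, Benjamini-Hochberg adjusted p under 0.05), where 0.346% and 0.722% of all genes tested (13297 and 13300) were called, in either direction, 0.0526% lower at 1 h. At an unadjusted p under 0.05 there was 1 member at 10 min and 0 at 1 h. The one was Slfn5, a nuclear repressor of transcription in the interferon response, with 47.4, 38.7 and 52.5 FPKM at 10 min against 36.4, 37.6 and 40.3 in sham (log2 difference 0.26, SE 0.11, adjusted p = 0.318). Slfn4 was measured at 0.383, 0.897 and 0.489 FPKM in sham, 2.14, 1.17 and 0.765 after 10 min, and 2.49, 0.876 and 2.30 after 1 h. Its group means were 2.30 and 3.20 times that of sham, but the sham mouse with the most Slfn4 lay above 1 mouse of each later group. Between 10 min and 1 h, where Slfn4 can be tested, the log2 difference was 0.28 (SE 0.28, adjusted p = 0.728). Of the 7 members 0 passed in that comparison, against 0.602% of all genes, and at an unadjusted p under 0.05 there were 2, Slfn3 and Slfn5, both with lower values at 1 h.

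Slfn4, the intermediate-size member of activated myeloid cells, was the family's high riser. At 6 h it stood at 109.8, 36.0 and 39.3 FPKM, in the 24 h hearts at 108, 26.1 and 389, and in those of 72 h at 54.3, 66.4 and 53.2. Every mouse from 6 h on lay above every mouse of the first hour, by at least an order of magnitude. The group means were 105, 296 and 98.3 times that of sham, given as a description. From 1 h to 6 h, in mice the choice of Slfn4 did not use, it rose by 4.30 on the log2(FPKM + 1) scale (SE 0.43, limma adjusted p = 0.0020). From 6 h to 72 h the log2 difference was 0.10 (95% interval -0.77 to 0.96, adjusted p = 0.831). 6 h mouse 1 stood well above the other two, and without that mouse the difference was 0.60 (adjusted p = 0.0035).

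Slfn1, a short member that slows the growth of T cells when expressed in them, rose at the same step. It was near the detection limit in sham, at 0.153, 0.156 and 0.0764 FPKM, and stayed at or below 0.211 FPKM through 1 h. At 6 h it measured 6.97, 1.52 and 2.10 FPKM. The 24 h hearts had 4.74, 1.47 and 15.5 FPKM, those of 72 h had 3.94, 3.83 and 3.40. The 72 h hearts were close to one another and the 24 h hearts spread over an order of magnitude. Against sham the difference was 1.81 at 6 h (SE 0.39) and 2.07 at 72 h (SE 0.088) on the log2(FPKM + 1) scale, which understates folds of so low a gene. Since the filter kept Slfn1 only through mice in which it was high, its test against sham is given from the fit of all genes with no filter, where it passed at both times (limma adjusted p = 0.0335 and 3.71e-06). From 6 h to 72 h the log2 difference was 0.25 (95% interval -0.61 to 1.11, adjusted p = 0.571), and without 6 h mouse 1 it was 0.76 (adjusted p = 0.0015).

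The ratio of Slfn4 to Slfn1 was 11.8, 6.44 and 16.9 at 1 h, with both genes still low, and 13.8 to 25.0 from 6 h on. In the mice at 6 h it was 15.8, 23.7 and 18.7. Ratios of 22.8, 17.7 and 25.0 followed in the 24 h hearts, with 13.8, 17.3 and 15.6 in those of 72 h. The 72 h ratios all lay below those at 24 h, a description with no test. Across the 9 hearts from 6 h on Slfn4 itself ranged from 26.1 to 389 FPKM. Slfn4 and Slfn1 also share the longest run around the ETS word, and whether the word bears on their levels was not tested. Slfn3, which shares the word and whose body begins just past the end of Slfn4, did not follow: the ratio of Slfn4 to Slfn3 ranged from 35.1 to 535 in the same hearts.

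Slfn2, the short member that keeps T cells and monocytes quiescent and protects transfer RNA, was present in sham at 2.28, 2.64 and 3.05 FPKM. It measured 11.1, 4.38 and 5.45 FPKM at 6 h, then 9.52, 6.01 and 28.0 in the 24 h hearts, and lastly 19.0, 18.5 and 21.0 at 72 h. The 24 h hearts overlapped both those of 6 h and those of 72 h. No mouse from 6 h on overlapped sham. The rise over sham was 1.04 at 6 h (SE 0.28, adjusted p = 0.0318) and 2.49 at 72 h (SE 0.096, adjusted p = 9.75e-08) on the log2 scale, and from 6 h to 72 h it rose further by 1.45 (SE 0.27, adjusted p = 0.0016). The ratio of Slfn4 to Slfn2 went from 7.21 to 9.91 at 6 h to 2.54 to 3.59 at 72 h, with no overlap.

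At 6 h the count of members other than Slfn4 that rose over sham was 2 of 6, Slfn1 and Slfn2, against 28.3% of all genes called and 11.6% called higher. None fell, against 16.8% called lower, and 1 member, Slfn9, was lower at an unadjusted p under 0.05. Slfn1 was bound to differ, having passed the filter only through the later mice, and without it the count was 1 of 5. With no filter on low values Slfn1 passed and Slfn2 did not. The 6 h count rests on all 3 sham mice: it was 0 without sham mouse 1, 1 without sham mouse 2 and 0 without sham mouse 3. From 1 h to 6 h, 3 of 7 members rose (Slfn1, Slfn2 and Slfn4), against 9.32% of all genes and 20.5% called in either direction. Without 1 h mouse 1, 2 or 3 in turn the count was 1, Slfn4, each time. Here too Slfn1 was bound to differ, for the same reason. With no filter Slfn1 and Slfn4 passed (limma adjusted p = 0.0458 and 0.0082) and Slfn2 did not (adjusted p = 0.0615). None fell in that comparison, against 11.2%, with 1 (Slfn9) at an unadjusted p under 0.05.

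Slfn8 and Slfn9, long members next to each other on the minus strand, rose late. Slfn8 is a nuclease-like member that myeloid cells and T cells express. It was at 1.18, 1.41 and 1.76 FPKM in sham, with 3.71, 1.67 and 1.81 at 6 h, then 3.41, 2.39 and 7.86 at 24 h. By 72 h it reached 14.1, 14.3 and 12.5. At 6 h the group overlapped sham (log2 difference 0.43, SE 0.22, adjusted p = 0.180), and the 72 h hearts all lay above every other mouse (2.58 over sham, SE 0.10, adjusted p = 1.24e-07). From 6 h to 72 h it rose by 2.15 (SE 0.21, adjusted p = 4.69e-05).

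Slfn9 had the largest change of the family between 6 h and 72 h. It was at 2.22, 2.43 and 4.16 FPKM in sham and at 1.74, 1.99 and 1.83 at 6 h, so that all 6 h hearts lay below all sham hearts, although the test did not pass (log2 difference -0.43, SE 0.18, adjusted p = 0.110). At 24 h it measured 3.92, 8.95 and 3.82 FPKM and at 72 h 32.1, 53.3 and 28.2. The rise at 72 h was 3.28 over sham (SE 0.25, adjusted p = 4.18e-06) and 3.71 over 6 h (SE 0.21, adjusted p = 3.08e-06), on the log2 scale. In the order of group means Slfn9 stood just above Slfn3 at 6 h, where its range overlapped that of Slfn8, and behind only Slfn4 and Slfn5 at 72 h.

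The neighbours Slfn8 and Slfn9, with the same ISRE letters at nearly the same place, ranked the hearts differently at 24 h. The ratio of Slfn9 to Slfn8 was 1.72 to 2.36 in sham and 0.471 to 1.20 at 6 h. At 24 h it was 1.15 in mouse 1, 3.74 in mouse 2 and 0.486 in mouse 3, and at 72 h it was 2.28, 3.72 and 2.26. At 24 h mouse 3 had the highest Slfn1, Slfn2, Slfn4 and Slfn8 and the lowest Slfn9, and mouse 2 had the lowest of those 4 and the highest Slfn9. With 3 mice this order is a description and has no test.

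Slfn5 was the abundant member of the uninjured heart. It was at 36.4, 37.6 and 40.3 FPKM in sham, and 45.1, 40.0 and 46.8 by 6 h. It then measured 29.5, 29.8 and 32.7 in the 24 h hearts, and 50.3, 51.2 and 46.3 in those of 72 h. The 24 h hearts all lay below the sham hearts and the 72 h hearts all above. The value at 72 h was 0.36 over sham on the log2 scale (SE 0.069, adjusted p = 0.0013), close to the median of all genes in that comparison, which was 0.29. Scaling the libraries by median ratios brought the median of all genes to 0.031 and Slfn5 to 0.050 (adjusted p = 0.512), and quantile normalization brought them to -0.12 and 0.15 (adjusted p = 0.0811). Relative to the other genes, a rise of Slfn5 at 72 h was therefore not shown. The 6 h value was 0.20 (adjusted p = 0.119), and it passed with median-ratio scaling (0.29, adjusted p = 0.0255).

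Slfn3, an intermediate member first described in T cells and gut epithelium, stayed low throughout. It was at 0.684, 0.770 and 1.13 FPKM in sham, 0.666, 0.457 and 0.586 at 6 h, then 0.484, 0.745 and 0.727 in the 24 h hearts, and finally 0.878, 1.01 and 0.912 at 72 h. At 6 h all 3 hearts lay below sham (log2 difference -0.24, adjusted p = 0.149), and at 72 h the difference from sham was 0.06 (95% interval -0.19 to 0.31, adjusted p = 0.617). From 6 h to 72 h the log2 difference was 0.30 (SE 0.10, adjusted p = 0.0314), less than the median of all genes, 0.33. Its direction turned with quantile normalization, to -0.20 (adjusted p = 0.117), and with median-ratio scaling it was 0.13 (adjusted p = 0.288). It did not pass without 6 h mouse 2 or 3 or without 72 h mouse 2 or 3, with adjusted p from 0.0562 to 0.108.

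Counted together, 5 of the 6 members other than Slfn4 were called higher at 72 h than in sham (Slfn1, Slfn2, Slfn5, Slfn8 and Slfn9), when 77.3% of all genes were called and 53.1% were higher. None was called lower, against 24.2% of all genes, and none was lower at an unadjusted p under 0.05. Leaving out Slfn1, which passed the filter only through the later mice, the count was 4 of 5. A rise of Slfn5 relative to genes in general was not shown, as given above. From 6 h to 72 h, 4 of 7 members were called higher (Slfn2, Slfn3, Slfn8 and Slfn9), against 50.3% of all genes and 67.1% called in either direction, and none lower, against 16.7%, nor at an unadjusted p under 0.05. Without 6 h mouse 1 the count called higher was 6, with Slfn1 and Slfn4 added. The median log2 difference there was 0.30 for the members and 0.33 for all genes. The comparisons with sham share the same sham mice, and both comparisons that use the 6 h group share its mice.

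**Figure D2:**
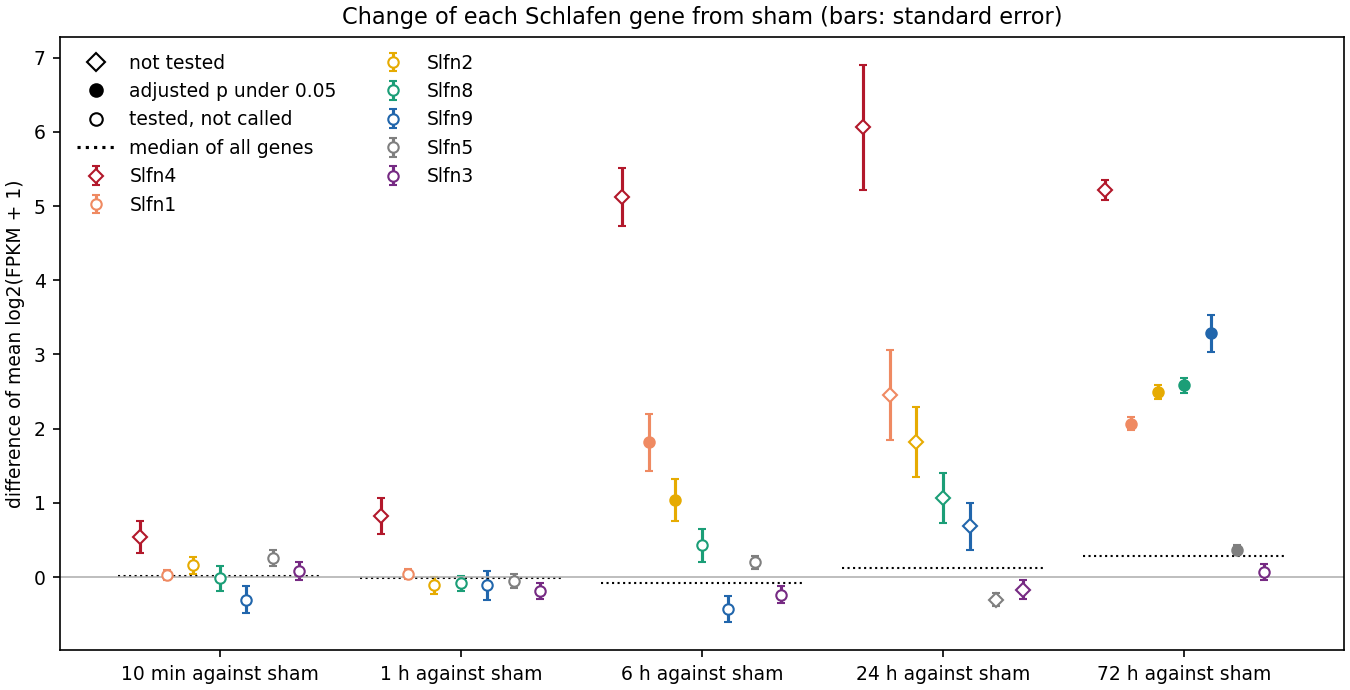
Difference of the mean log2(FPKM + 1) between each time point and sham for the 7 genes, with standard errors. Filled circles passed an adjusted p under 0.05, open circles were tested and did not, open diamonds were not tested, and dotted lines are the median of all genes. Slfn4 lies at 5.12 at 6 h and 5.22 at 72 h, while Slfn9 goes from -0.43 to 3.28.

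The make-up of Schlafen expression changed from a heart dominated by Slfn5 to one shared by several members. FPKM is per length, so levels can be summed over genes. Slfn5 held 81.7% ± 2.5 (SD, n = 3) of the summed FPKM of the 7 genes in sham, and Slfn4 held 1.27% ± 0.60. At 6 h Slfn4 held 47.8% ± 11.8 and Slfn5 39.8% ± 12.7, and at 24 h 61.3% ± 24.1 and 21.6% ± 16.6. By 72 h the shares were even again between hearts, with 31.7% ± 0.53 for Slfn4, 27.1% ± 2.3 for Slfn5, 20.3% ± 4.6 for Slfn9 and 10.8% ± 1.9 for Slfn2.

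**Figure D3:**
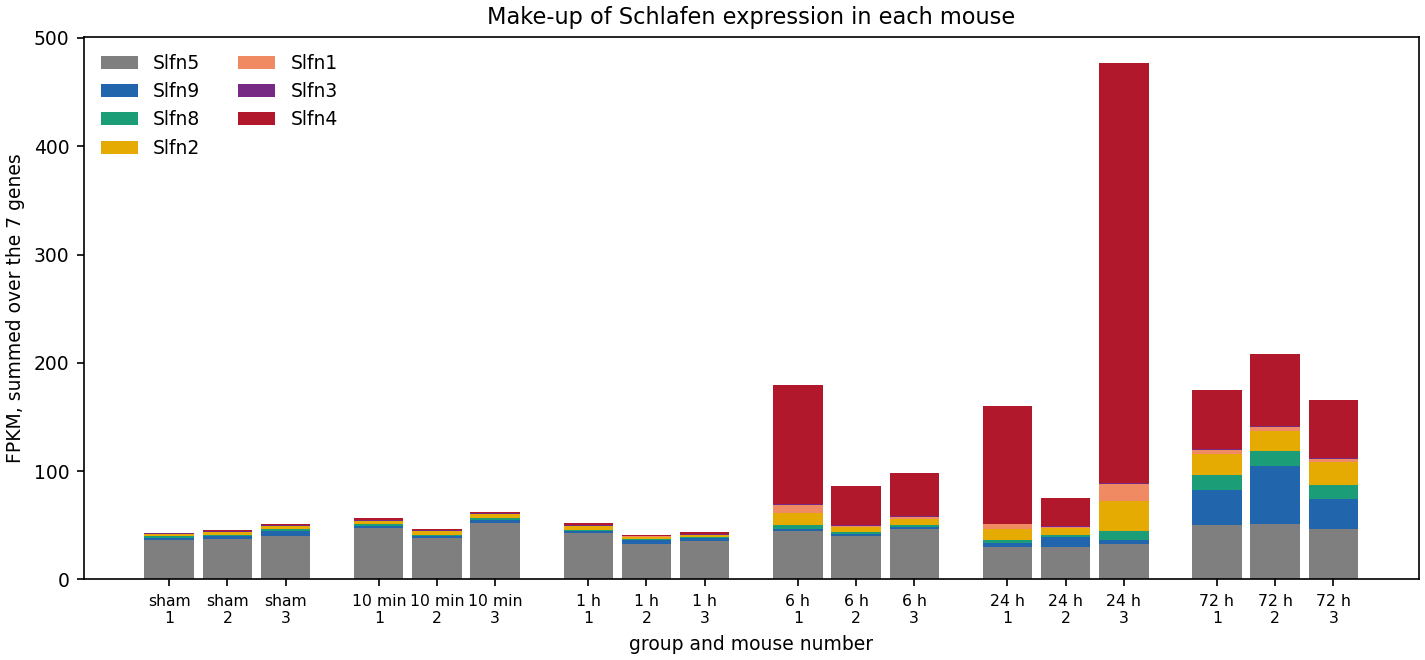
FPKM of the 7 Schlafen genes stacked for each of the 18 mice. Slfn5 (grey) makes up most of the sham, 10 min and 1 h bars, Slfn4 (red) most of 24 h mouse 3, where it reaches 389 FPKM, and the 72 h bars also hold Slfn9 (blue) and Slfn2 (yellow).

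The pseudogene Slfn10-ps was highest at 72 h. It was at 0.188, 0.116 and 0.246 FPKM in sham, 0.927, 0.546 and 0.364 in the 6 h hearts, and 1.87, 4.01 and 2.55 in those of 72 h. The log2 difference from sham was 0.43 at 6 h and 1.65 at 72 h, given with no test, since the gene passed the filter only through 24 h mouse 3 and the 72 h mice. Whether reads of Slfn9 contribute to it was not tested.

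Interferon is the classic inducer of Schlafen genes, so the pathway's genes are given beside them. Of 18 type I and type II interferon ligand genes, 13 were listed at 0 in all 18 mice and none passed the filter. Of 30 interferon-stimulated genes, all tested, 3 rose at 6 h (Ifi204, Ifi205 and Oas3), when 11.6% of all genes were called higher. Of these Oas3, at 0.113 FPKM on average in sham, passed the filter only through ligated mice. Its rise over sham, and its part in the counts, is therefore a description at every time. How many others of the 30 passed in that way is not given here. Of the 30, 6 fell, when 16.8% were called lower. The median log2 difference of the list was -0.11 and that of all genes -0.083, so at 6 h the list was near the background. The number that fell was 3 with median-ratio scaling or without sham mouse 1, 1 without sham mouse 2 or 3, and 10 without 6 h mouse 1. At 24 h, when 26.2% of all genes were called higher, 8 of the 30 rose, with a median of 0.33, and the count was 0, 1 and 2 without sham mouse 1, 2 and 3. At 72 h, when 53.1% of all genes were called higher, all 30 rose, with a median of 1.62, and all 30 did so under both other scalings. Ifi204, a DNA sensor of macrophages, rose by 3.41, Oas3, an antiviral sensor of double-stranded RNA, by 3.04, and its relative Oas1a by 2.66 (SE 0.099, 0.087 and 0.089). The summed FPKM of the list was 185 to 226 in sham, 175 to 223 at 6 h and 677 to 768 at 72 h, and at 24 h it was 225, 224 and 366, highest in mouse 3.

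Of 10 interferon receptor and JAK-STAT genes, 3 rose and 3 fell at 6 h, against 11.6% and 16.8% of all genes. Jak2, a kinase of cytokine receptors, rose by 1.13 (SE 0.22, adjusted p = 0.0106), and Ifngr2, a chain of the interferon gamma receptor, fell by 0.86 (SE 0.11, adjusted p = 0.0025). The number that rose was 1 without sham mouse 1, 2 or 3, or without 6 h mouse 1. At 72 h, 9 rose and 1 fell, against 53.1% and 24.2% of all genes. Of 8 interferon regulatory factors tested, 7 rose at 72 h, against the same 53.1%, and 5 or 4 did so with median-ratio scaling or quantile normalization. Irf8, which partners PU.1 at ETS-IRF sites in myeloid cells, rose by 1.05 at 6 h (SE 0.18, adjusted p = 0.0073) and by 2.89 at 72 h (SE 0.078), and Irf5 and Irf7 rose by 2.93 and 2.09 at 72 h.

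Genes tied to the functions of Schlafen proteins were counted in the same way. Of 11 regulators of cell quiescence, 1 was called higher at 10 min, when 0.248% of all genes were, and 3 at 1 h, when 0.669% were. The 10 min call was Btg2, with a log2 fold change of 0.63 (SE 0.085, adjusted p = 0.0403). That call was lost with median-ratio scaling, in a single fit of the 18 mice, with the mouse number as a block, without 10 min mouse 3, and without sham mouse 1, 2 or 3. At 1 h the count was 2 without 1 h mouse 2 or without sham mouse 3. At 1 h Btg2, which restrains cell division, rose by 2.72 (SE 0.10, adjusted p = 1.28e-05), and the transcription factors Klf2 and Klf4 by 1.44 and 1.37 (SE 0.19 and 0.10). No Schlafen gene tested had passed by then. At 72 h 3 rose and 5 fell, against 53.1% and 24.2% of all genes, or 8 fell under either other scaling. Of 7 genes of transfer RNA biology tested, 5 rose at 72 h and 1 fell, near those same shares. Ang, the nuclease angiogenin that cuts transfer RNA, rose by 1.10. The count that rose was 4 with median-ratio scaling and 3 with quantile normalization.

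Markers of leukocytes moved with the Schlafen genes, and in whole tissue more cells of a type and more RNA per cell cannot be told apart. The neutrophil markers (9 of 10 were in the table, all tested) summed to 2.61 to 5.30 FPKM in sham, then to 1047, 122 and 392 at 6 h and, in the 24 h hearts, to 227, 48.9 and 1059. The 72 h sums were 60.5, 76.2 and 74.1. All 9 rose at 6 h, when 11.6% of all genes were called higher, led by S100a9 (6.24), S100a8 (5.43) and Trem1 (3.61). S100a8 and Trem1 averaged 0.422 and 0.018 FPKM in sham. They passed the filter only through ligated mice, so their rise over sham is a description. In sham S100a9 averaged 2.72 FPKM of a sum of 2.61 to 5.30, so the other markers were low there too. The filter therefore favoured the count of 9, which is also a description. The mouse with the highest sum at 6 h (mouse 1) and at 24 h (mouse 3) was also the highest in Slfn1, Slfn2, Slfn4 and Slfn8. This order was not particular to neutrophil markers. The same mice had the highest sums of the pan-leukocyte, erythroid and platelet, endothelial, and monocyte and macrophage markers. The fibroblast sum was highest in mouse 3 at 6 h and in mouse 2 at 24 h. Slfn4 did not keep a fixed proportion to the neutrophil sum. Per 100 FPKM of the sum Slfn4 stood at 11.3 to 18.7 in sham and 10.0 to 29.4 at 6 h. At 24 h it was 36.7 to 53.4 and at 72 h 71.8 to 89.8, and these last 3 ranges did not overlap. S100a9 and S100a8 made up most of the sum at 6 h, with means of 382 and 84.3 FPKM, so the proportion is mainly one to them. Csf3r, a neutrophil receptor, had means of 5.42, 13.0 and 7.67 FPKM at 6 h, 24 h and 72 h. Those of Slfn4 were 61.7, 174 and 58.0. The 7 markers of granulocyte precursors summed to 0.010 to 0.179 FPKM in sham, 3.73, 1.46 and 2.33 at 6 h, 0.407, 0.201 and 2.83 at 24 h, and 0.649 to 0.784 at 72 h. The 6 h hearts all lay above sham, with Ngp, a granule protein, at 2.25 ± 1.18 FPKM (SD, n = 3) against 0.025 ± 0.042, while Mpo, Elane and Ctsg were listed at 0 in all 6 h hearts. Ngp was the only one of the 7 that passed the filter.

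The pan-leukocyte markers (Ptprc and 5 others) summed to 18.6 to 22.8 FPKM in sham, then to 86.3, 29.9 and 49.7 at 6 h. They reached 113, 121 and 258 in the 24 h hearts, and 347 to 378 in those of 72 h. Per 100 FPKM of them Slfn2 stood at 11.4 to 14.2 in sham and 10.96 to 14.6 at 6 h, and at 5.16 to 5.54 at 72 h. The 6 h range overlapped that of sham and the 72 h range lay below both. The monocyte and macrophage markers (12, all tested) summed to 191 to 223 FPKM in sham and 199 to 241 at 6 h. They reached 378 to 528 at 24 h and 1926 to 2411 at 72 h. Of these markers 11 of 12 rose at 72 h, when 53.1% of all genes were called higher. Among the 12, Chil3, Plac8 and Ccr2 averaged 0.092, 0.168 and 0.638 FPKM in sham. They passed the filter only through ligated mice, so the filter favoured the count, which is a description. Per 100 FPKM of the monocyte and macrophage markers Slfn9 was at 1.16 to 1.87 in sham, 0.723 to 1.00 at 6 h, 0.724 to 2.17 at 24 h and 1.17 to 2.77 at 72 h. The 6 h range lay wholly below sham, and the 72 h range overlapped it. Among the 72 h hearts mouse 2 had the lowest sum and the highest Slfn9. The same mouse had the highest sum of fibroblast markers, 1595 FPKM against 1265 and 1346 in mice 1 and 3. This order was not particular to fibroblast markers. The neutrophil, endothelial, and erythroid and platelet sums were also highest in mouse 2, and the pan-leukocyte and T cell sums in mouse 3. Per 100 FPKM of the fibroblast markers Slfn9 was at 1.08 to 1.95 in sham, 0.854 to 1.25 at 6 h, 1.94 to 3.89 at 24 h and 2.10 to 3.34 at 72 h, and the 72 h range lay above that of sham. The 9 T cell markers summed to 1.59 to 2.44 FPKM in sham. At 1 h they summed to 3.05 to 4.04, at 6 h to 2.98 to 3.15 and at 72 h to 5.87 to 10.1, with no overlap with sham. The sums of 1.97 to 3.49 at 10 min and 2.39 to 3.03 at 24 h did overlap it. Of the 3 that passed the filter, Lck, a kinase of the T cell receptor, went from 0.267 ± 0.037 FPKM in sham to 1.21 ± 0.38 at 1 h and 2.81 ± 0.70 at 72 h (SD, n = 3), and Cd4 from 0.395 ± 0.076 to 1.72 ± 0.17 at 72 h. The part of each cell type in the Schlafen values was not tested.

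**Figure D4:**
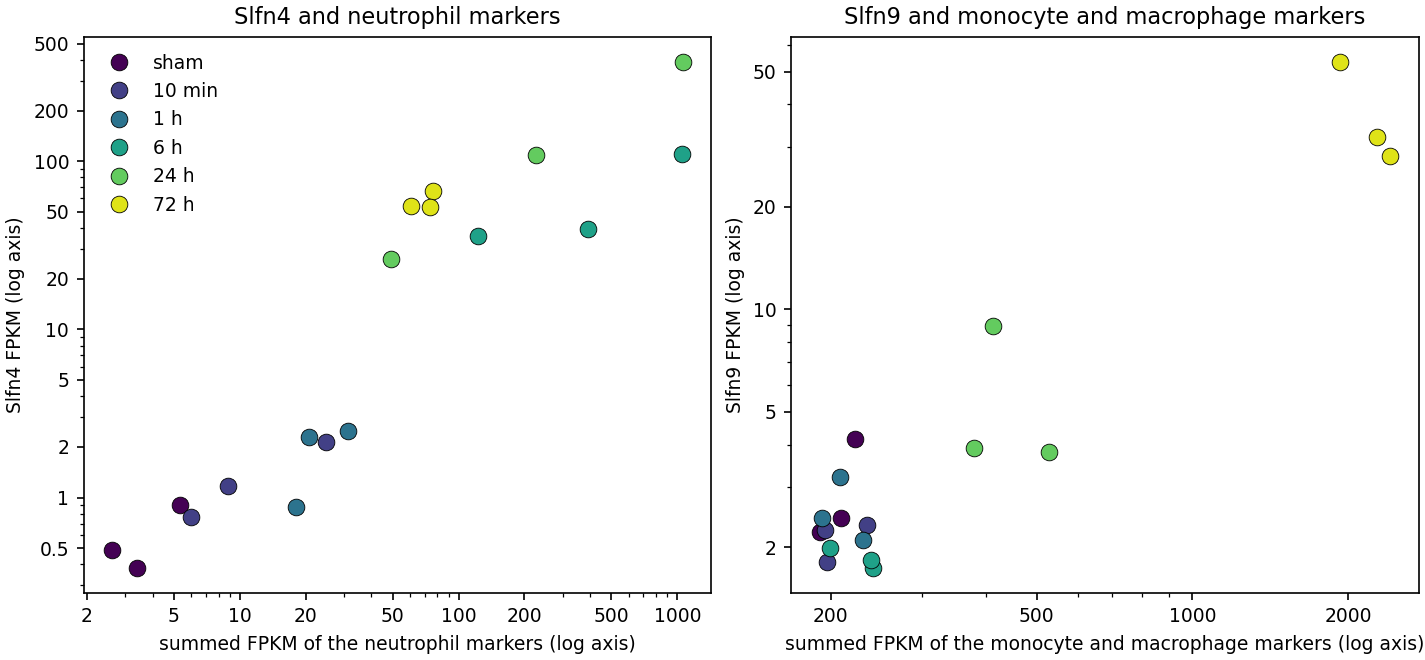
Left, Slfn4 against the summed FPKM of the neutrophil markers, and right, Slfn9 against that of the monocyte and macrophage markers, in each of the 18 mice, on log axes and coloured by group. The 72 h hearts have more Slfn4 for their neutrophil sum than the 6 h hearts, in which S100a9 and S100a8 make up most of that sum. Slfn9 is at 28.2 FPKM or more only at 72 h.

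The genes with the course most like each member were ranked by the root mean square difference of centred log2(FPKM + 1) over the 18 mice, a description with no test, since all share the same libraries. Nearest to Slfn4 were AA467197 (0.56), Chil3 (0.60), a secreted lectin of macrophages and neutrophils, Il1rn (0.66), which blocks interleukin-1, the protease Adamts4 (0.69) and the myeloid receptor Cd300lf (0.78). AA467197, Chil3 and Il1rn were below 0.303 FPKM on average in sham and at 19.4, 13.8 and 19.5 at 6 h. Nearest to Slfn1 were Tnfsf14 (0.27), Clec4e (0.29), the neutrophil receptor Csf3r (0.30), Slpi (0.33) and Il17ra (0.35). Nearest to Slfn2 were Selplg (0.16), the leukocyte ligand of selectins, Pygl (0.20), Clec7a (0.21), Snx20 (0.22) and Apobr (0.24). Slfn8 was nearest to Rab8b (0.17), Inpp5d (0.18), a phosphatase of blood cells, Themis2 (0.18), Pik3r5 (0.19) and Rbm47 (0.20). Nearest to Slfn9 were the collagen Col16a1 (0.27), Racgap1 (0.27) and Tk1 (0.28), which act in dividing cells, the B cell and macrophage receptor Cd180 (0.27) and Gpx7 (0.28). Racgap1 and Tk1 were at 0.402 and 0.331 FPKM on average at 6 h and at 15.2 and 17.0 at 72 h. No gene appeared among the nearest 5 of more than 1 member.

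The genes next to the cluster did not share its course as a block. Before it, Unc45b, a chaperone for muscle myosin, fell by 0.41 at 6 h (SE 0.087, adjusted p = 0.0145) and by 1.09 at 72 h (SE 0.065, adjusted p = 1.09e-06). Nle1, a ribosome assembly factor, was higher by 0.57 at 6 h (adjusted p = 0.0252), and its 72 h difference of 0.22 turned to -0.35 with quantile normalization. Past Slfn3, the transcript AI662270 went from 0.488 ± 0.12 FPKM in sham to 9.10 ± 0.92 at 72 h (SD, n = 3). The log2 difference from sham was 0.30 at 6 h and 2.76 at 72 h. Both are given with no test, since AI662270 passed the filter only through mice at 6 h or later. AA465934, further on, was lower by 0.39 at 72 h (adjusted p = 0.0089). Fndc8 and Snord7 did not pass the filter.

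**Figure D5:**
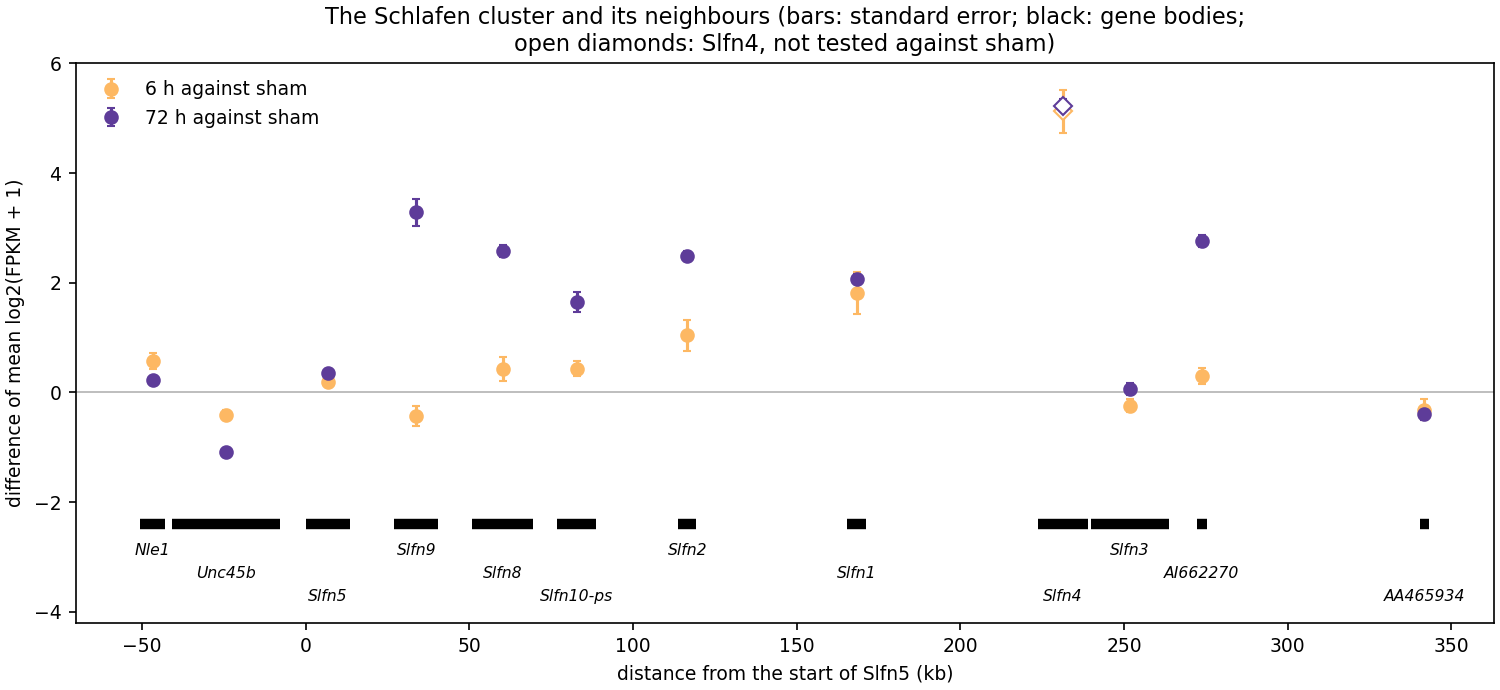
Difference from sham of the mean log2(FPKM + 1) at 6 h and at 72 h for the Schlafen genes and the neighbours that passed the filter, with standard errors, placed by distance from the start of Slfn5. At 6 h the high points are Slfn4 (5.12), Slfn1 (1.81) and Slfn2 (1.04), and at 72 h Slfn9 (3.28), AI662270 (2.76) and Slfn8 (2.58) join them, while Slfn3, which is beside Slfn4, lies at 0.06. Slfn1, Slfn10-ps and AI662270 passed the filter only through mice at 6 h or later.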

How the data were processed

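Poly(A)-selected RNA from 18 mouse hearts was sequenced as 150-base pairs. The authors trimmed reads with cutadapt 1.18, aligned them to mm10 with HISAT2 2.1.0 and deposited FPKM values from StringTie 1.3.4d. The annotation used is not given in the sources used here. Counts were not used here, so no counting interval is given. Genes that reached 1 FPKM in any mouse were kept (13333), and each comparison was fitted on the log2(FPKM + 1) values of its own 6 mice with limma 3.58.1 (R 4.3.3, lmFit and eBayes with trend). P-values were two-sided and adjusted by Benjamini-Hochberg across every gene in the fit, and calls were made under 0.05. With 3 mice against 3, an exact permutation test could not go below 0.1. Nothing says whether mice shared a cage or a day, and p-values measure the spread between these mice. The fitting code was tested on simulated data. The members and all 18 gene lists were chosen with earlier results of these data known.

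Named genes were the 7 members, other symbols beginning with Slfn, the largest called changes with no overlap of the groups in each list, the nearest 3 symbols on each side, and the 5 genes most alike; 1 gene that this rule names is not reported here. Reads of members and pseudogenes were not reassigned. Equal mouse numbers were not taken as pairs, since no comparison had all 3 correlations above 0.1. Alternatives were a pseudocount of 0.1, no filter, a single fit of the 18 mice, scaling by median ratios, normalization by quantiles, the mouse number as a block, and each mouse left out.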

Additional observations from a re-analysis of the deposited data

Results flagged for a closer look

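The change from sham differed between 6 h and 72 h for 4 of the 7 genes, by a test of 72 h against 6 h itself, in which 67.1% of all genes were called, so the count is not above that of genes in general. The log2 difference was 3.71 for Slfn9, 2.15 for Slfn8 and 1.45 for Slfn2, and all 3 passed under every alternative run. That of Slfn3 was 0.30, under the median of all genes in that comparison (0.33), and it did not pass with either other scaling, with the mouse number as a block, or without 6 h mouse 2 or 3 or 72 h mouse 2 or 3. Groups of 3 mice are too small for a test of single outlying hearts.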

How the results depend on the processing

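The alternatives left every count of called members on its side and within 1.5 times, except as follows. For 6 h against sham, where 2 members other than Slfn4 were called higher, the count was 1 with no filter on low values (Slfn1), and leaving out each mouse in turn gave 0 to 3. For 6 h against 1 h, where 3 members were called higher, leaving out each mouse gave 1 to 3. For 72 h against sham, where no member other than Slfn4 was called lower, quantile normalization called 1 (Slfn3). For 72 h against 6 h, where no member was called lower, median-of-ratios scaling called 1 (Slfn5). The log2 difference of Slfn3 from 6 h to 72 h reversed to -0.20 with quantile normalization. Of 30 interferon-stimulated genes, 8 were called higher at 24 h, with 5 under quantile normalization and 0 to 9 when each mouse was left out, alternatives added after the data were seen. With the mouse number as a block, 3 members rather than 4 were called higher at 72 h than at 6 h, since Slfn3 did not pass (adjusted p = 0.0909), and no other count of called members changed. The causes were not tested. A pseudocount of 0.1 raised the untested log2 differences of Slfn4 from sham, from 5.12 to 6.36 at 6 h and from 5.22 to 6.46 at 72 h, and 3 of the 5 genes most like Slfn4 stayed the same. FPKM carry no counts, so the precision at low levels, such as Slfn1 in sham, is unknown.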
